A study of Mus musculus with 10 samples.

Results

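The genes Spef1, Ribc2, Cfap77, Spag6l, Rsph1 and Foxj1 encode parts of motile cilia and flagella, or, for Foxj1, their transcriptional regulator. They are 6 of 21887 protein-coding genes of the RefSeq annotation of GRCm38.p6. They were listed because earlier readings of the same peak lists showed gained or lost marks of active chromatin at some of them, with Foxj1 added as regulator. Differences of H3K4me3, H3K27ac and H3K9cr between the treatments at these genes are therefore the basis of the choice and are given as a description, with no test. H3K27me3 was not named in that choice, but its lists come from the same cultures and the same contrast, and its values are a description as well. For each gene every peak that touched the gene body or the 5 kb on either side of it was taken from 8 deposited peak lists.

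The crotonate group was neural stem and progenitor cells of E13.5 mouse forebrain that were given 10 mM crotonate, a short-chain fatty acid, for 24 h. The control group was the same kind of cells given water for the same time. Both were low-passage cultures kept in medium with EGF and FGF, each at 20 ng/ml. Chromatin was precipitated without crosslinking with antibodies to H3K4me3, which marks promoters, to the acylations H3K9cr and H3K27ac, which mark active promoters and enhancers, and to H3K27me3, which Polycomb complexes set. Each mark had 1 library per treatment, so no value has a replicate error and no difference could be tested. The labels do not say how many embryos or cultures each library came from. The H3K27me3 and H3K4me3 antibodies carry different vendor names in the 2 treatments, and for H3K27ac and H3K9cr a vendor is named in control only; catalogue numbers are the same.

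Motile cilia are built on a ring of doublet microtubules around a central pair. Axonemal dyneins on the doublets drive the beat, radial spokes carry signals between the central apparatus and the dyneins, and inner proteins line the doublet walls. In the brain the cells that carry many motile cilia are ependymal cells, which descend from radial glia of the embryonic forebrain, while neural progenitors themselves carry a single primary cilium. FOXJ1 and RFX factors switch on the genes of the motile axoneme. RFX factors bind the X-box, a pair of inverted arms of the kind GTTGC and GCAAC.

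Read depth is unknown, because the lists give no read totals. A gained peak here is a crotonate peak that overlapped no control peak of the same mark by even 1 bp, and a lost peak is the reverse, so both words refer to the lists and cover peaks that may have fallen short of the calling limit on the other side. Fold enrichment, summit pileup and −log10 q are the authors' own values for each peak. The crotonate lists held 18001 H3K4me3, 32666 H3K9cr, 59868 H3K27ac and 34707 H3K27me3 peaks, and the control lists 17322, 31905, 52922 and 26031. In the same order of marks, the median fold enrichment was 91.6, 9.42, 4.62 and 4.03 in the crotonate lists and 102, 14.7, 5.59 and 4.34 in the control lists. Of 10 marker genes of neural stem and progenitor cells, 10 had H3K4me3 and 10 had H3K27ac in their gene body or within 1 kb of it in both treatments. Of 8 ependymal markers, Foxj1 among them, 3 had H3K4me3 in both treatments, and 5 had H3K27ac after crotonate and 4 in control. In wider windows of 5 kb on either side, 5 of the 8 had H3K4me3 and 7 had H3K27ac in both treatments, and Ccdc153, Rarres2 and Pifo had no H3K4me3 peak in either list. Of 6 neuronal markers, 6 had H3K4me3 within 1 kb in both treatments, and of 5 markers of the oligodendrocyte lineage 4 had it after crotonate and 5 in control, so that H3K4me3 was not limited to progenitor markers. Of 4 microglial markers none had H3K4me3 in either list, while 2 had H3K27ac after crotonate and 3 in control.

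The RefSeq promoter table holds 4 of the 6 genes, Spef1, Ribc2, Cfap77 and Spag6l. Their promoters, 250 bases before to 50 bases after the start, are printed because the lost and gained peaks of active marks described below lay on or beside them. They are in the direction of transcription, from GRCm38.p6, with each GTTGC or GCAAC in capitals. The Spef1 promoter is chr2:131174761-131175060 on the minus strand, the Ribc2 promoter chr15:85131848-85132147 on the plus strand, the Cfap77 promoter chr2:29055017-29055316 on the minus strand, and the Spag6l promoter chr16:16829314-16829613 on the minus strand.
Spef1: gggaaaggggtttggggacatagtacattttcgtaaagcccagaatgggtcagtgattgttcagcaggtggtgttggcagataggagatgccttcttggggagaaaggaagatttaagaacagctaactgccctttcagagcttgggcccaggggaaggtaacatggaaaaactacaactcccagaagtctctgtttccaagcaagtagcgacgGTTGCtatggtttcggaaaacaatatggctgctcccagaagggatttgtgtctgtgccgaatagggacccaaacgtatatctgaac
Ribc2: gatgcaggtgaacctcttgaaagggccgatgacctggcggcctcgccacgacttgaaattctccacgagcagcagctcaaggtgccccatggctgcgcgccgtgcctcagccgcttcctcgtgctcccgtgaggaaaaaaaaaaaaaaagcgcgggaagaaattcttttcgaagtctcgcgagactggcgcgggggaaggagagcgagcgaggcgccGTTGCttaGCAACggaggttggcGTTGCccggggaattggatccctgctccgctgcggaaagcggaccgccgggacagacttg
Cfap77: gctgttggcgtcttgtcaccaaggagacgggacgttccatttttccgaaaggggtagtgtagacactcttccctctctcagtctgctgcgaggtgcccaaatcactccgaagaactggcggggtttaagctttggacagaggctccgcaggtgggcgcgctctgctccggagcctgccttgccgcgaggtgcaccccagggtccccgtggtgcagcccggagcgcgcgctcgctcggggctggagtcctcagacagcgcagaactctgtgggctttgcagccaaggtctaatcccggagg
Spag6l: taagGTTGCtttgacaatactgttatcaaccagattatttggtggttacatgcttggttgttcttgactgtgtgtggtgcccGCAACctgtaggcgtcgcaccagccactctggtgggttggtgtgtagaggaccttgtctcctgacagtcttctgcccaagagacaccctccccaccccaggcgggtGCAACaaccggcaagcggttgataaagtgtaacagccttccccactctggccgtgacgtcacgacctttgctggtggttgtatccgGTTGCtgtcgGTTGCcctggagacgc

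The 4 promoters differed in base composition and in X-box arms. The Ribc2 promoter held 30 CpG and 61% G and C, the Cfap77 promoter 22 CpG and 63%, the Spag6l promoter 12 CpG and 55%, and the Spef1 promoter 6 CpG and 48%. The median of 21006 promoters of the same length was 13 CpG and 56.7% G and C. Counting both strands, GTTGC occurred 5 times in the Spag6l promoter, 3 times in that of Ribc2, once in that of Spef1 and not in that of Cfap77. Of the 21006 promoters, 35.0% held it at least once, 1.46% held it 3 times or more and 0.0286% held it 5 times or more.

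In Ribc2 a pair of the arms faced each other as GTTGCTTAGCAAC, from base -33 to base -21 before the start. The form GTTGCNNNGCAAC was present in 0.286% of promoters and in no other of these 4. The form with 4 bases between the arms, GTTGCNNNNGCAAC, was in 0.148% of promoters and in none of the 4. GTAAACA, a core bound by forkhead factors, was in 3.02% of promoters and in none of the 4 on either strand. CCAAT was in 38.2% of promoters and, on the other strand as ATTGG, in that of Ribc2 from base 3 to base 7 after the start. These motifs were chosen with the 4 sequences in view. The letters describe the windows and do not show that a factor binds there.

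Spef1 and Ribc2 lost their H3K4me3 peaks at the start and kept H3K9cr there. Both also lost an H3K27ac peak, at the start of Spef1 and just before that of Ribc2, inside the span of the neighbouring gene Smc1b. Cfap77 and Spag6l gained H3K27ac at the start, where H3K4me3 and H3K9cr lay in both treatments. Rsph1 and Foxj1 kept H3K4me3, H3K9cr and H3K27ac in both treatments. Over the gene windows, 0 of the 6 genes gained and 2 lost an H3K4me3 peak, against 4.56% and 1.35% of all genes. None gained and none lost an H3K9cr peak, against 15.2% and 9.59% of all genes. H3K27ac peaks were gained at 3 and lost at 2 of the 6, against 29.9% and 22.9% of all genes. Since the genes were chosen on these marks, nothing is read from those shares.

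**Figure D1:**
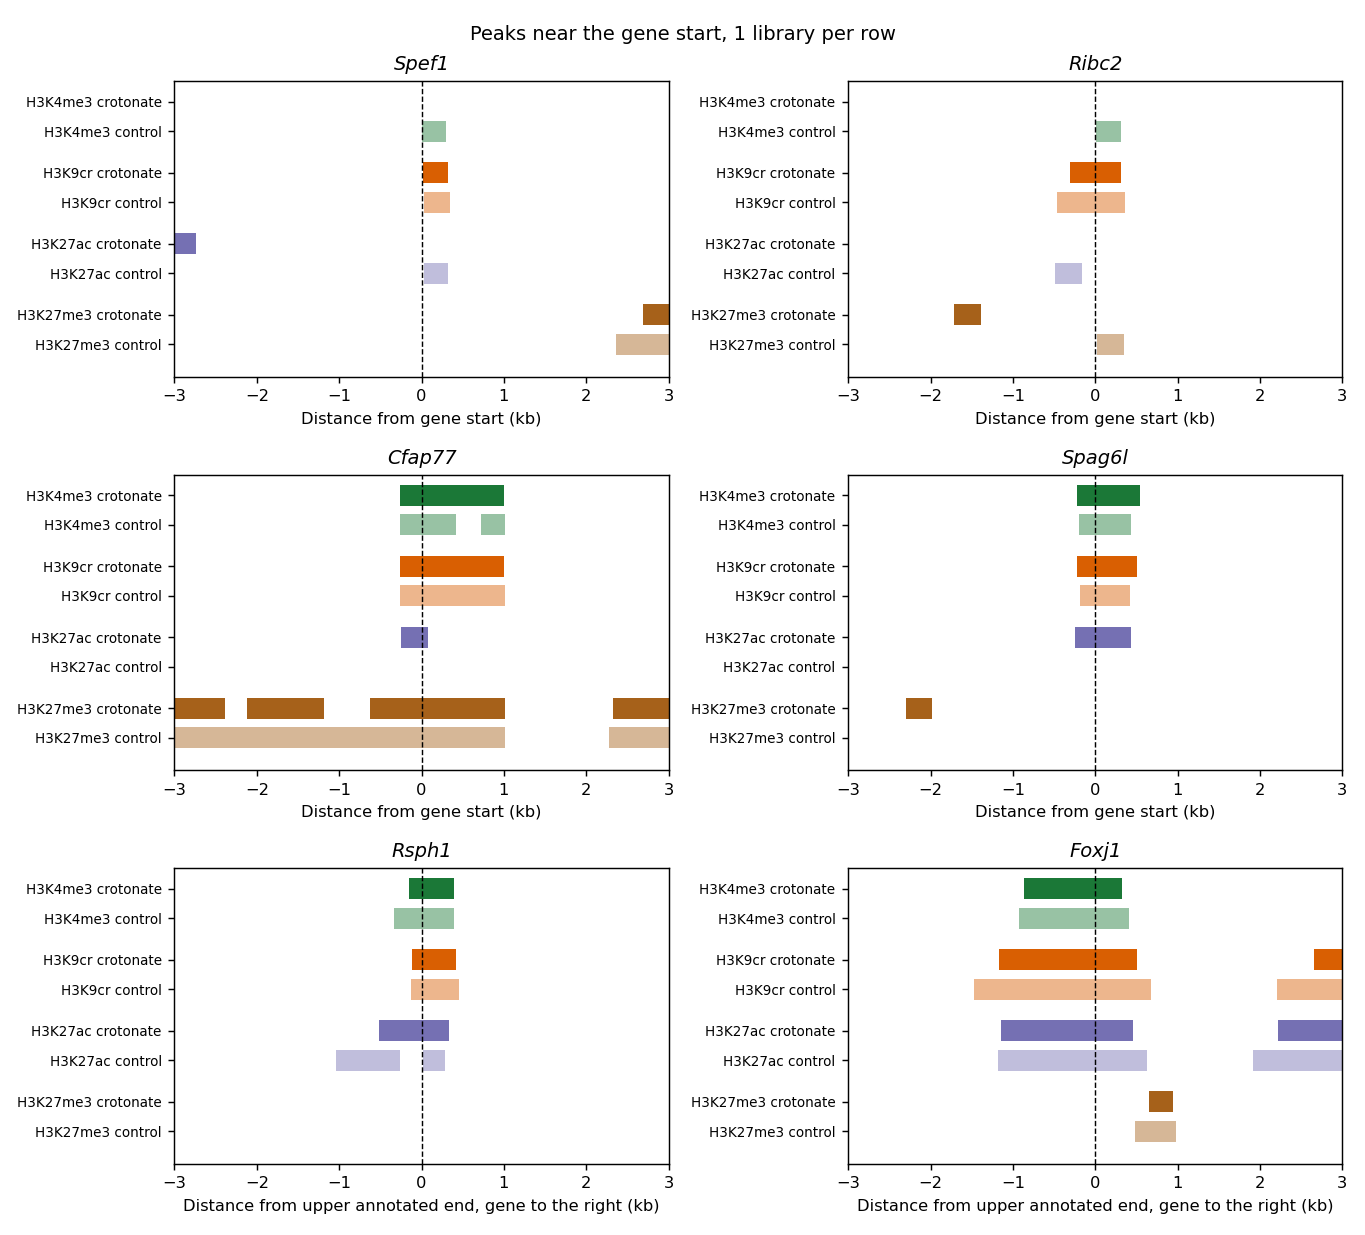
Peaks of the 4 marks within 3 kb of the start of each gene, in kb along the direction of transcription, with crotonate (dark) above control (light) for each mark. For Rsph1 and Foxj1, which have no start in the promoter table, the zero is the upper annotated end of the gene. The H3K4me3 and H3K27ac rows of Spef1 and Ribc2 have a peak near 0 in control only, and the H3K27ac rows of Cfap77 and Spag6l have one in crotonate only.

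Spef1 (chromosome 2, 131170261 to 131174810) encodes a microtubule-binding protein of the central apparatus. No H3K4me3 peak touched its start after crotonate, whereas in control a peak of 294 bp began 2 bp and ended 295 bp after the start (131174515 to 131174808), with a pileup of 53 and 11.8-fold enrichment. H3K27ac was likewise absent from the crotonate list at the start and present in control as a peak of 298 bp (131174486 to 131174783) with a pileup of 19 and 3.93-fold enrichment. H3K9cr stayed in both lists at this place, with a peak of 300 bp, a pileup of 23 and 5.22-fold enrichment after crotonate, and one of 326 bp, a pileup of 36 and 6.64-fold enrichment in control. All 3 control peaks thus lay on the first bases of the gene body, downstream of the start, and overlapped each other.

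All of these Spef1 peaks were weak within their lists. The control H3K4me3 peak stood at percentile 18.4 of its list by −log10 q, the control H3K27ac peak at 33.6, and the H3K9cr peaks at 32.7 of the crotonate list and 32.4 of the control list. H3K27me3 did not touch the start. It lay inside the gene as a shared peak of 610 bp with 4.91-fold enrichment after crotonate and of 1019 bp with 5.69-fold enrichment in control. A second H3K27me3 peak of 465 bp, with 3.54-fold enrichment, was in the crotonate list only, near the far end of the gene.

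The other active marks in the Spef1 window lay on Cenpb, which encodes a centromere protein. Its annotated span lies upstream of the Spef1 start, with 2478 bp between them. A shared H3K4me3 peak there had 121-fold enrichment after crotonate and 109-fold in control. H3K9cr there had 71.3-fold enrichment after crotonate and 116-fold in control, and H3K27ac 13.9-fold after crotonate and 22.4-fold in control. The H3K27ac peak counted as gained in this window, 267 bp with a pileup of 9 and 2.72-fold enrichment, lay inside Cenpb and stood at percentile 0.695 of its list. With windows of 1 kb it was not counted.

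Ribc2 (chromosome 15, 85132060 to 85144570) encodes a ribbon protein of the inner doublet wall. It had no H3K4me3 peak after crotonate anywhere in its window, whereas control had 1 peak of 314 bp, from 4 to 317 bp after the start (85132102 to 85132415), with a pileup of 41 and 10.7-fold enrichment. H3K27ac had no peak after crotonate and 1 peak of 320 bp in control, at -483 to -164 bp from the start (85131615 to 85131934), with a pileup of 15 and 3.89-fold enrichment. H3K9cr spanned the start in both lists, over 622 bp with a pileup of 23 and 5.71-fold enrichment after crotonate and over 816 bp with a pileup of 43 and 9.28-fold enrichment in control. The H3K9cr peak was the only active mark left in the window after crotonate.

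H3K27me3 at Ribc2 also differed between the lists, with weak peaks only. After crotonate there was 1 peak of 334 bp, at -1717 to -1384 bp from the start, with 4.09-fold enrichment. In control there were 2, of 327 and 356 bp with 3.52-fold and 3.79-fold enrichment, of which the first lay from 27 to 353 bp after the start, on the H3K4me3 peak. H3K4me3 and H3K27me3 thus overlapped at the start in the control lists, and neither was called there after crotonate. The annotated span of Smc1b, which encodes a meiotic cohesin subunit, comes within 102 bp of Ribc2. The lost H3K27ac peak and the gained H3K27me3 peak lay inside that span. Whether they belong to Smc1b or to Ribc2 cannot be told apart.

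Starts marked by both H3K4me3 and H3K27ac in control only were few. Of 17492 genes with a start in the promoter table, 7 (0.04%) were of this kind, and 6 (0.0343%) kept H3K9cr. Spef1 and Ribc2 are among both. The lost peaks came from the weaker part of the control lists, at percentile 16.0 for H3K4me3 and 26.7 for H3K27ac at Ribc2, and with the stronger 50% of each list neither gene had a lost H3K4me3 or H3K27ac peak. For the single marks, 0.154% of starts had H3K4me3 in control only and 2.28% had H3K27ac in control only. Both genes owe their place in the list to these losses.

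**Figure D2:**
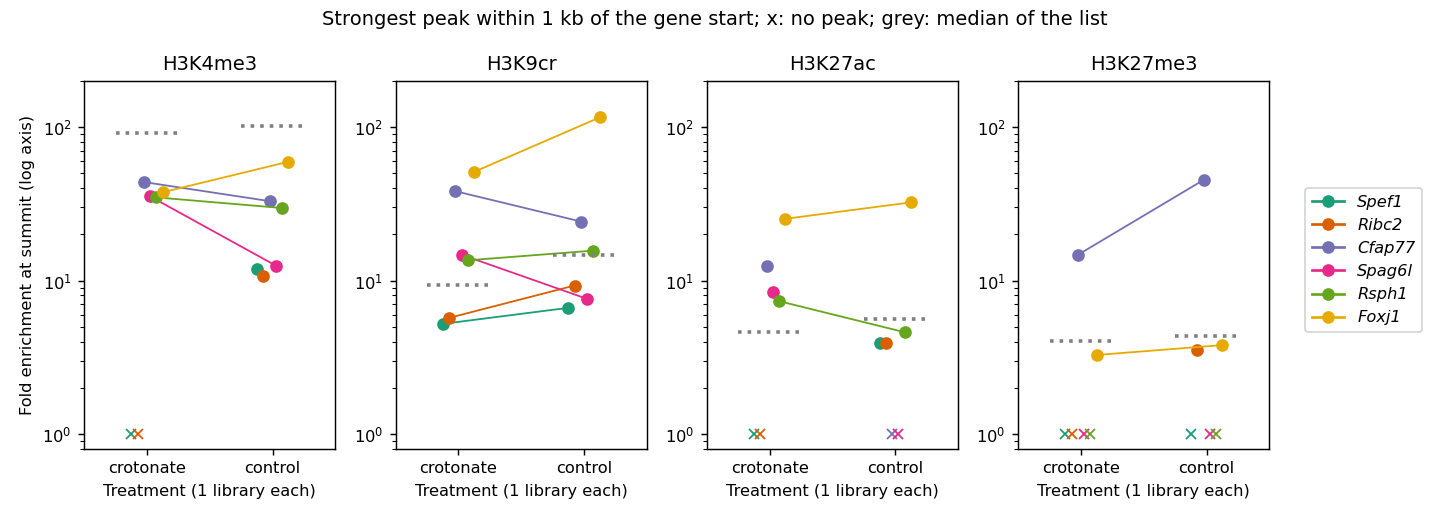
Fold enrichment (log axis, the authors' values) of the strongest peak within 1 kb of the start, or of the upper annotated end for Rsph1 and Foxj1, after crotonate and in control, for each mark and gene. Crosses mark the absence of a peak and dotted grey lines the median of each whole list. In the H3K4me3 panel every gene lies below the medians of 91.6 and 102.

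Spag6l (chromosome 16, 16753016 to 16829363) encodes a central apparatus protein that is related to PF16 of the alga Chlamydomonas. H3K27ac at its start was a peak of 679 bp after crotonate (16828927 to 16829605), with a pileup of 30 and 8.43-fold enrichment, and there was no H3K27ac peak in the whole control window. H3K4me3 lay at the same place in both lists, over 771 bp with a pileup of 136 and 35.4-fold enrichment after crotonate and over 634 bp with a pileup of 48 and 12.5-fold enrichment in control. H3K9cr covered 731 bp with a pileup of 61 and 14.7-fold enrichment after crotonate, and 608 bp with a pileup of 35 and 7.60-fold enrichment in control. Width, pileup and fold enrichment of both shared marks were thus higher in the crotonate lists, whose medians of fold enrichment over all peaks were the lower ones.

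The gained H3K27ac peak of Spag6l stood at percentile 72.5 of the crotonate list. Away from the start, 3 narrow H3K27me3 peaks of 298 to 355 bp, with 2.75-fold to 3.27-fold enrichment, were in the crotonate list only. Control had no H3K27me3 in the window. Rpl31-ps12, an entry named as a pseudogene of a ribosomal protein, lies inside the gene and was touched by no peak. Spag6l has a near copy on chromosome 2, Spag6, so that reads could be shared between the copies, and its values are uncertain to that degree.

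Cfap77 (chromosome 2, 28955481 to 29055066) encodes another inner protein of the doublet. H3K27ac at its start was a peak of 324 bp after crotonate (29054986 to 29055309), at -243 to 80 bp from the start, with a pileup of 45 and 12.5-fold enrichment, and control had no peak there. H3K4me3 was 1 peak of 1269 bp with a pileup of 169 and 43.9-fold enrichment after crotonate, and 2 peaks of 683 and 290 bp in control, with pileups of 128 and 27 and 33.0-fold and 6.32-fold enrichment. H3K9cr was a peak of 1272 bp with a pileup of 160 and 38.3-fold enrichment after crotonate, and of 1271 bp with a pileup of 114 and 24.3-fold enrichment in control. The gained H3K27ac peak stood at percentile 81.2 of the crotonate list and was the stronger of the start peaks gained at Cfap77 and Spag6l.

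Cfap77 was the one gene of the 6 inside a broad H3K27me3 domain. Peaks of this mark covered 63.0% of its window after crotonate and 54.7% in control, with 19 peaks in each list. After crotonate 2 blocks of 18594 and 17003 bp had 42.5-fold and 35.6-fold enrichment. In control the 3 longest blocks measured 13758, 10131 and 8588 bp, with 25.1-fold, 45.8-fold and 10.3-fold enrichment. The 6 gained peaks were 289 to 701 bp wide with 2.73-fold to 5.18-fold enrichment, and lay in gaps of the control domain inside the gene, while 1 peak of 335 bp was lost.

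Around the start of Cfap77 the control list had the higher H3K27me3 pileup and fold enrichment. The H3K27me3 peak on the start was 1639 bp wide after crotonate, with a pileup of 53 and 14.7-fold enrichment, and 4654 bp wide in control, with a pileup of 166 and 45.3-fold enrichment. The control peak spanned -3641 to 1012 bp from the start and corresponded to 3 separate peaks after crotonate, of 1639, 939 and 2004 bp, the last of which reached farther upstream, to -4389 bp. Their pileups were 53, 20 and 26. The gained H3K27ac peak lay inside the part that kept H3K27me3. Of the 17492 starts, 274 (1.57%) had H3K27ac after crotonate only, 179 (1.02%) of them with H3K4me3 and H3K9cr in both lists, and 99 (0.566%) with all 3 other marks in both, as at Cfap77. Since each mark was read in its own library of many cells, the lists cannot say whether the marks shared cells or alleles.

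Within the gene, about 38 kb from the start, H3K9cr and H3K27ac lay together inside the H3K27me3 domain in both treatments. H3K9cr had 5.71-fold enrichment after crotonate and 6.12-fold in control. H3K27ac was 1 peak of 859 bp with 5.98-fold enrichment after crotonate, and 2 peaks of 282 and 397 bp with 4.62-fold and 3.23-fold enrichment in control. At the upstream edge of the window a strong shared H3K4me3 peak, 191-fold after crotonate and 202-fold in control, reached in from beyond it. The control H3K9cr peak at that place began just outside the window, so that the window held 3 H3K9cr peaks in the crotonate list and 2 in the control list although none was gained.

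**Figure D3:**
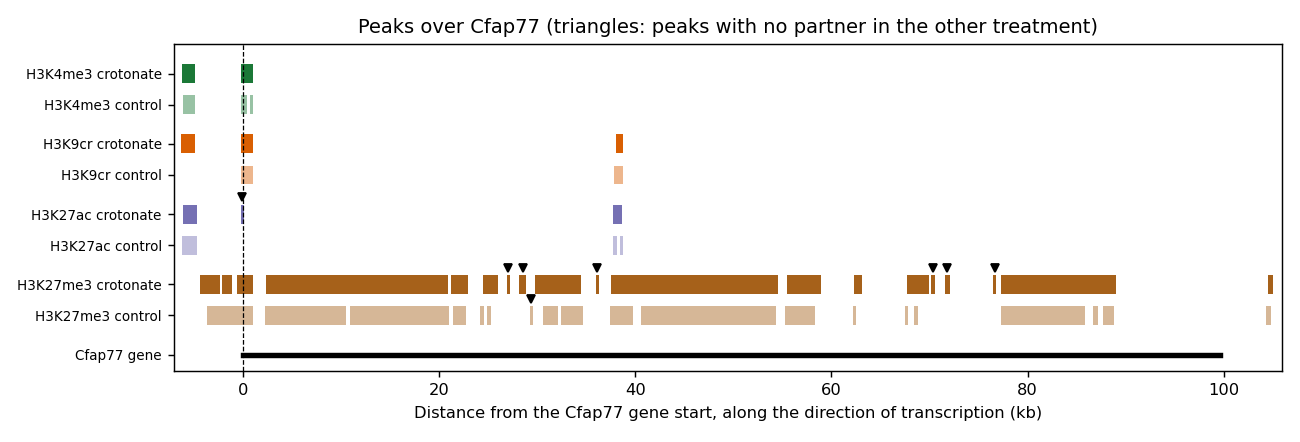
Peaks over the Cfap77 gene and 5 kb on either side, in kb from the gene start along the direction of transcription, with crotonate (dark) above control (light) for each mark; black triangles mark peaks without a partner in the other treatment. The H3K27me3 rows fill 63.0% of the window after crotonate and 54.7% in control, and the H3K27ac triangle lies on the start.

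Rsph1 (chromosome 17, 31255019 to 31277296) encodes a protein of the radial spoke head. At its upper annotated end H3K4me3 was a peak of 548 bp with a pileup of 134 and 34.8-fold enrichment after crotonate, and of 728 bp with a pileup of 162 and 29.7-fold enrichment in control. H3K9cr covered 535 bp with a pileup of 56 and 13.6-fold enrichment after crotonate, and 583 bp with a pileup of 108 and 15.7-fold enrichment in control. H3K27ac was 1 peak of 851 bp with 7.34-fold enrichment after crotonate and 2 peaks of 261 and 776 bp with 4.60-fold and 3.80-fold enrichment in control. No active mark was gained or lost at Rsph1.

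The H3K27me3 lists differed at Rsph1, away from that end. The crotonate list had 2 peaks of 359 and 405 bp, with 3.35-fold and 3.66-fold enrichment, and the control list had none in the window. The first of the 2 lay beyond the lower end of the gene, inside the overlapping gene Ubash3a, which encodes a regulator of T cell receptor signalling.

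Foxj1 (chromosome 11, 116330704 to 116335499) had the largest share of its window under H3K9cr and H3K27ac of the 6 genes. H3K27ac covered 41.8% of the window after crotonate and 45.4% in control, and H3K9cr 24.3% after crotonate and 33.0% in control. At the upper annotated end the H3K27ac peak had a pileup of 92 and 25.3-fold enrichment after crotonate, and 132 and 32.4-fold in control. A second H3K27ac peak covered the lower part of the gene, over 4573 bp with 17.4-fold enrichment after crotonate and 4913 bp with 20.9-fold enrichment in control. H3K27me3 was a single weak shared peak, 291 bp wide with 3.27-fold enrichment after crotonate and 496 bp wide with 3.79-fold enrichment in control.

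The annotated span of Rnf157, a gene for a ubiquitin ligase, comes within 845 bp of this end. The active peaks there reached into that span. Whether the nearer end of Rnf157 is its start was not examined. All Foxj1 peaks were shared, and all were narrower in the crotonate lists. H3K4me3 at the upper end was 1194 bp wide with a pileup of 153 and 37.6-fold enrichment after crotonate, and 1331 bp wide with a pileup of 232 and 59.5-fold enrichment in control. H3K9cr at the same end was 1671 bp wide with a pileup of 214 and 51.1-fold enrichment after crotonate, and 2146 bp wide with a pileup of 548 and 116-fold enrichment in control. The 2 other H3K9cr peaks had 7.63-fold and 6.42-fold enrichment after crotonate, and 17.2-fold and 12.8-fold in control.

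Of the 7 peak pairs of Foxj1, 7 were thus narrower after crotonate. Among all pairs with 1 partner on each side, the crotonate peak was the narrower one in 32.7% of H3K4me3 pairs, 56.9% of H3K9cr pairs, 72.7% of H3K27ac pairs and 47.6% of H3K27me3 pairs. Of the pairs at the other genes, 3 of 5 at Spef1, 1 of 1 at Ribc2, 3 of 8 at Cfap77, 2 of 2 at Rsph1 and 0 of 2 at Spag6l were narrower after crotonate. The lowest background implied by any peak, a stand-in for depth, was 3.20 in crotonate and 3.74 in control among H3K9cr peaks, 2.68 in crotonate and 3.11 in control among H3K27ac peaks, and 2.87 in crotonate and 2.91 in control among H3K4me3 peaks. Among H3K27me3 peaks it was 2.67 in crotonate and 2.69 in control. Its part in the widths was not tested.

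**Figure D4:**
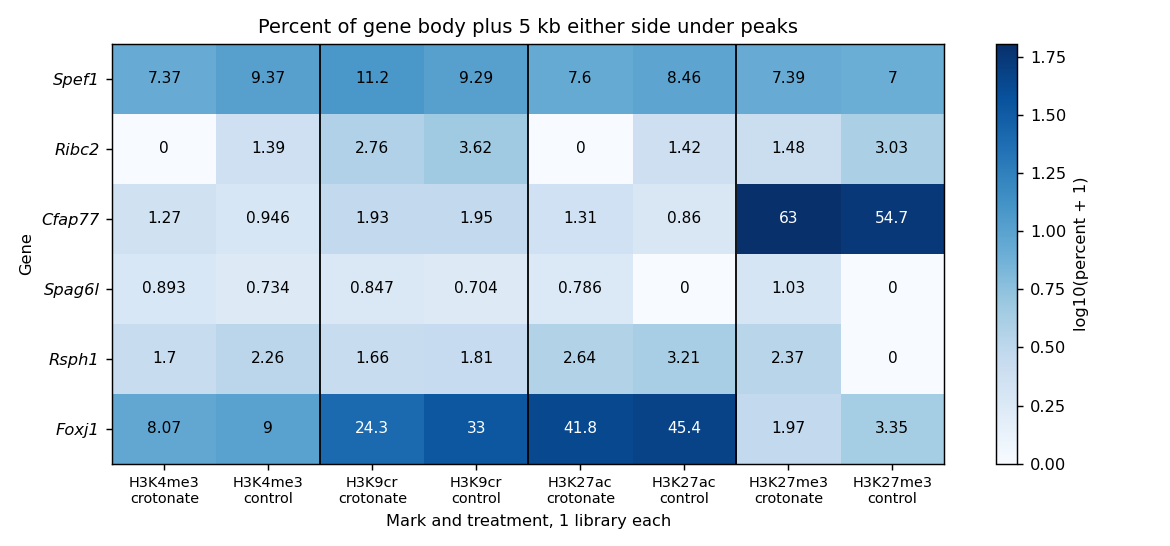
Percent of each gene window (gene body plus 5 kb on either side) under peaks, for each mark and treatment with crotonate left of control; the colour follows log10(percent + 1). Foxj1 has the highest H3K9cr and H3K27ac values and Cfap77 the highest H3K27me3 values.

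H3K27me3 peaks were gained at 5 of the 6 genes, Spef1, Ribc2, Cfap77, Spag6l and Rsph1, against 18.1% of all genes, and lost at 2, Ribc2 and Cfap77, against 13.4%. The 13 gained peaks were narrow, 289 to 701 bp wide with 2.73-fold to 5.18-fold enrichment, and their median stood at percentile 30.9 of the crotonate list. The crotonate H3K27me3 list was the longer one. With equal numbers of peaks 4 of the 6 genes gained one, against 12.7% of all genes, and with the stronger 50% of each list 2 did, against 10.0%. For the stronger 50% the lists were cut before matching, so a crotonate peak whose partner was cut counted as gained too. Of the 13, 9 touched gene bodies and none touched a start in the promoter table. The members' windows had a median length of 27394.5 bp and those of all genes one of 27169 bp. Cfap77 and Spag6l had the longest windows of the 6, 109586 and 86348 bp, and held 6 and 3 of the 13 gained peaks. Spef1, Ribc2 and Rsph1, with shorter windows, held 1, 1 and 2. The part of window length in these gains was not tested.

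**Figure D5:**
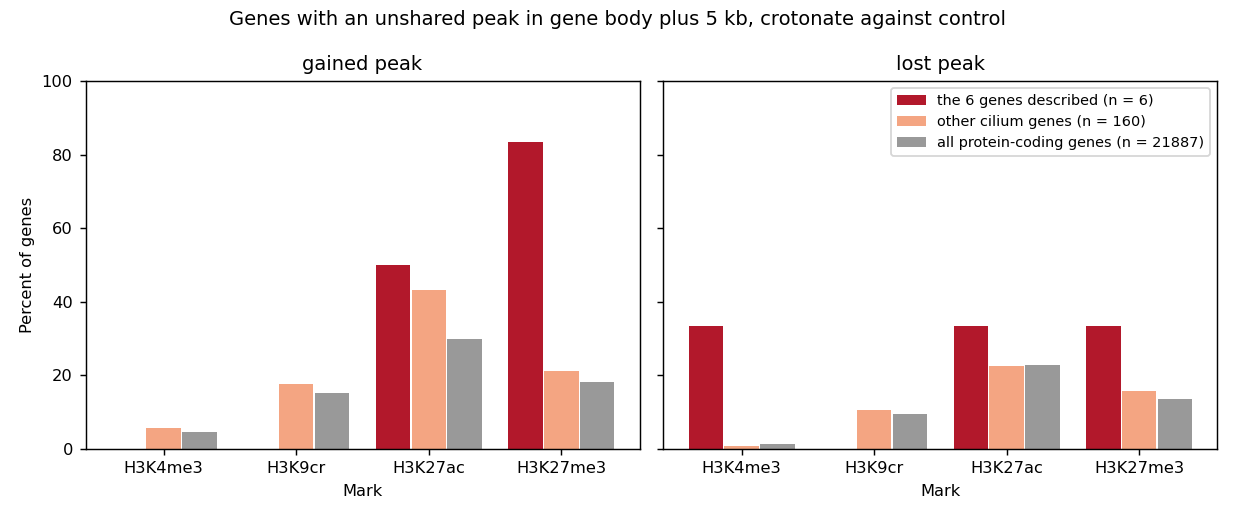
Percent of genes with a gained (left) or lost (right) peak of each mark in the gene body or 5 kb on either side, for the 6 genes described, the 160 other cilium genes and all 21887 protein-coding genes. The bars of the 6 genes rest on 6 genes chosen for such differences.

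Other genes of cilia were described through 10 lists by role, which named 185 genes. Of these 166 were found in the annotation by symbol or synonym, and 160 were not among the 6. H3K4me3 was gained at 9 of the 160 (5.63%) and lost at 1 (0.625%), near the 4.56% and 1.35% of all genes. H3K9cr was gained at 28 (17.5%) and lost at 17 (10.6%), near the 15.2% and 9.59% of all genes. H3K27ac was gained at 69 (43.1%) and lost at 36 (22.5%), against 29.9% and 22.9% of all genes. H3K27me3 was gained at 34 (21.25%) and lost at 25 (15.6%), against 18.1% and 13.4%.

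The windows of these 160 genes had a median length of 47808.5 bp, longer than the 27169 bp of all genes, and the part of that length in the H3K27ac gains was not tested. The median over these genes of each gene's own difference in the share of its window under peaks, crotonate minus control, was 0.0353 percentage points in the case of H3K4me3, 0.00475 in that of H3K9cr, -0.294 in that of H3K27ac and 0 in that of H3K27me3, and over all genes it was 0 throughout. The median share itself was 3.48% after crotonate and 3.55% in control under H3K4me3, and 4.39% after crotonate and 4.44% in control under H3K9cr, so that for these marks the medians of the shares and of the differences have opposite signs. Under H3K27ac it was 4.32% after crotonate and 4.51% in control, and over all genes 3.45% and 3.76%. The difference of 0 over all genes includes genes without a peak. H3K27ac was present at 14986 of 21887 genes after crotonate and 14814 in control, against 150 and 148 of the 160. Of 26 genes of intraflagellar transport, which moves cargo along the axoneme, 26 had H3K4me3, H3K9cr and H3K27ac in both treatments, and none gained or lost H3K4me3. H3K27ac was gained at 15 of the 26 (57.7%) and lost at 4 (15.4%), against 29.9% and 22.9% of all genes, and with the stronger 50% of each list it was gained at 6 and lost at 0, against 14.2% and 8.29%. In that alternative the lists were cut before matching, so a peak whose control partner was cut counted as gained. In the full lists the highest ranked H3K27ac gains of the 160, at Rfx4, Traf3ip1 and Cluap1, stood only at percentiles 54.6, 53.2 and 51.4. Of 12 other radial spoke genes, 0 gained and 0 lost H3K4me3, and of 12 other central apparatus genes 1 gained it.

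Foxj1 itself acts within a small group of regulators of motile ciliogenesis. Of 15 regulators other than Foxj1, 15 had H3K4me3 in the window after crotonate and 13 in control, and 15 had H3K9cr after crotonate and 12 in control. H3K9cr was gained at 7 and lost at 2 of them, against 15.2% and 9.59% of all genes, and H3K27me3 was gained at 8 and lost at 4, against 18.1% and 13.4%. With the stronger 50% of each list H3K9cr was gained at 0 and lost at 1, against 4.75% and 2.82% of all genes, and H3K27me3 was gained at 3 and lost at 1, against 10.0% and 6.85%. Those counts can include peaks whose partner was cut before matching. H3K27me3 was gained at 5 of them with equal numbers of peaks, against 12.7%, and at 4 with windows of 1 kb, against 11.7%.

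At Gmnc, whose product starts the programme of multiciliated cells, the crotonate lists held H3K4me3 (519 bp, pileup 22, 5.62-fold) and H3K9cr (451 bp, pileup 30, 7.03-fold) on the start, and the control lists held neither. These peaks stood at percentiles 7.44 and 42.9 of the crotonate lists. H3K27me3 covered the Gmnc start in both, with 11.8-fold enrichment after crotonate and 11.4-fold in control. Deup1, which encodes a protein of the deuterosome, where basal bodies are multiplied, had H3K4me3 with 3.10-fold and H3K9cr with 6.18-fold enrichment on its start after crotonate only, and H3K27me3 with 2.99-fold enrichment in control only. Its H3K4me3 peak, with a pileup of 11, stood at percentile 0.325 of the crotonate list, its H3K9cr peak at 37.8, and its H3K27me3 peak at 9.48 of the control list.

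Not all regulators were alike. Mcidas, which encodes a partner of the Gmnc product in this programme, had H3K9cr on the start with 5.49-fold enrichment in control only. Its H3K4me3 was shared, with 9.29-fold enrichment after crotonate and 6.13-fold in control, under H3K27me3 with 79.1-fold enrichment after crotonate and 145-fold in control. Foxn4, a forkhead factor of multiciliated cells in the frog, gained H3K9cr on the start with 3.33-fold enrichment. That peak, with a pileup of 13, stood at percentile 7.77 of the crotonate list. The H3K4me3 of Foxn4 had 15.0-fold enrichment after crotonate and 3.03-fold in control, at percentiles 20.8 and 0.704 of those lists. H3K27me3 covered the Foxn4 start in both, with 89.4-fold enrichment after crotonate and 122-fold in control. Myb had the 1 lost H3K4me3 peak of the 160 genes, 249 bp with 4.09-fold enrichment and more than 15 kb inside the gene.

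At the starts of 139 other cilium genes with an entry in the promoter table, H3K4me3 was present after crotonate only at 3 (2.16%), Gmnc, Deup1 and Spag6, and in control only at none, against 1.33% and 0.154% of all starts. H3K9cr was present after crotonate only at 6 (4.32%), Ccdc65, Cfap70, Deup1, Foxn4, Gmnc and Spag6, and in control only at 2 (1.44%), Mcidas and Zmynd10, against 1.35% and 0.543%. H3K27ac was present after crotonate only at 5 (3.60%), Cfap221, Cfap47, Dnah9, Drc1 and Spef2, and in control only at 9 (6.47%), against 1.57% and 2.28%. Those 9 were Ccdc65, Cfap161, Cfap52, Dnah6, Dnaic1, Dnal1, Hydin, Tmem231 and Zmynd10. H3K27me3 was present after crotonate only at none and in control only at 4 (2.88%), Deup1, Rfx4, Ribc1 and Tekt1, against 0.966% and 3.36%.

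Spag6, the near copy of Spag6l, thus had H3K4me3 with 5.27-fold and H3K9cr with 3.39-fold enrichment on its start after crotonate only, at percentiles 7.99 and 12.7 of those lists. It lay under H3K27me3 with 104-fold enrichment after crotonate and 283-fold in control, whereas the Spag6l start carried no H3K27me3.

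The unshared peaks of active marks named here for the 160 genes, which are among the highest ranked of their unshared peaks, touched gene bodies, except one just before the start of Traf3ip1. Those of H3K4me3 were gained at Dnah8, an axonemal dynein heavy chain, with 6.95-fold enrichment, Dnaaf3, a dynein assembly factor, with 6.97-fold, and Iqcd, of the nexin-dynein regulatory complex, with 6.45-fold enrichment. Those 3 peaks stood at percentiles 11.6, 10.1 and 8.94 of the crotonate list and were thus weak within it. Those of H3K9cr were gained at Gmnc and Deup1, given above, and at Dnah8. The gained H3K4me3 peak of Dnah8 lay 8596 to 8943 bp after the start and overlapped its gained H3K9cr peak of 5.22-fold enrichment. Lost H3K9cr peaks lay at Rfx7 and Dnah2, with 9.28-fold and 5.70-fold enrichment and percentiles of 39.1 and 24.3 in the control list. H3K27ac was gained most strongly at Rfx4, Traf3ip1 and Cluap1, with 5.16-fold, 4.84-fold and 4.89-fold enrichment, and lost peaks of this mark lay at Dnah3 and Tmem67, with 7.30-fold and 6.08-fold enrichment.

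The cilium genes most like each of the 6 were found by the mean absolute difference, over the 8 lists, of the percent of the window under peaks. For Spef1 they were Gas8 (1.29 percentage points) and Tekt2 (1.58), for Ribc2 Cfap69 (0.793) and Ift88 (0.969), and for Spag6l Kifap3 (0.285) and Drc1 (0.298). For Rsph1 they were Ahi1 (0.511) and Ttc21b (0.570), for Cfap77 Tcte1 (3.09) and Foxn4 (5.94), and for Foxj1 Cfap20 (4.79) and B9d1 (7.59). For Ribc2 only 1 other protein-coding gene was closer than Cfap69, while for Foxj1 56 were closer than Cfap20.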

How the data were processed

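Native ChIP-seq peak lists of H3K4me3, H3K9cr, H3K27ac and H3K27me3 were used, 1 library per mark and treatment, grouped by the labels; the 2 inputs were not used here. Per the submitters' processing notes the tools were Bowtie2 2.4.1 and MACS2 2.2.7.1 and the build was GRCm38. How duplicates and input were handled and with which settings peaks were called is not given in the sources used here. In the deposited lists the pileup is a coverage signal at the summit, the fold enrichment is the ratio of it to the local background, and −log10 p-values and −log10 q-values describe the summit, per the file headers. The weakest peaks of the lists had q-values of 0.05 or a little less.

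Peaks were compared with the 1-based coordinates of the lists, in Python 3.11.15 with pandas 2.3.3, and the overlap code was tested on simulated peaks. RefSeq gene positions on GRCm38.p6 were used (21887 protein-coding genes), with starts and strands from a RefSeq promoter table, which holds 17492 of these genes. A start was marked when a peak touched the segment from 250 bp before to 50 bp after it. The lowest background implied by a list is the lowest value of pileup plus 1, divided by fold enrichment, minus 1.

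The 6 genes, the cilium lists, the alternatives and the naming rule were chosen with earlier results of these data known. Named besides the 6 were, by that rule, the 2 most similar cilium genes per gene, up to 3 cilium genes per active mark and direction with the highest −log10 q of an unshared peak, and neighbours; 1 gene that the rule names is not reported here. Cilium genes whose start was marked in 1 treatment only were named after their values were seen. No replicate, p-value or interval between treatments exists here, and since no molecular identifiers are described, pileups may count copies of the same molecule.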

Additional observations from a re-analysis of the deposited data

How the results depend on the processing

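Of 112 counts of genes recomputed under 7 alternatives, 88 stayed within 1.5 times the reported count. The cause of the others was not tested beyond what each alternative removes or adds. With the stronger 50% of each list, H3K4me3 was lost at 0 of the 6 genes and 5 of the 160 other cilium genes (0.996% of all genes), H3K9cr gained at 1 and 9 (4.75%) and lost at 1 and 5 (2.82%), H3K27ac gained at 32 of the 160 (14.2%) and lost at 0 and 16 (8.29%), and H3K27me3 gained at 2 and 20 (10.0%) and lost at 0 and 8 (6.85%). The losses at Spef1 and Ribc2 therefore rest on peaks from the weaker part of the lists. In this alternative both lists were cut before matching, so a peak whose partner was cut counted as gained or lost. In the full lists no H3K9cr peak was gained or lost at the 6 genes. At the 160, the highest ranked gained and lost H3K9cr peaks, at Gmnc and Rfx7, stood at percentiles 42.9 and 39.1. The lost H3K4me3 peak, at Myb, stood at 2.06. These H3K9cr counts and H3K4me3 losses thus come from peaks shared in the full lists. With overlap of 50% of both peaks, 4 of the 6 and 66 of the 160 lost H3K27ac (32.8% of all genes), and of the 160, 5 lost H3K4me3 (3.36%), 29 H3K9cr (14.9%) and 38 H3K27me3 (21.6%), so that the share of all genes was higher than reported there too. With equal numbers of peaks the longer crotonate list was cut before matching. Then 4 of the 160 lost H3K4me3 (1.97%) and 21 gained H3K27me3 (12.7%). With peaks within 1 kb counted as shared, 1 of the 6 and 15 of the 160 lost H3K27me3 (9.02%). With windows of 1 kb, 22 of the 160 gained H3K27me3 (11.7%), and with windows of 10 kb 1 of the 6 lost H3K9cr (11.3%). The difference in covered percent of the window, crotonate minus control, changed sign in 8 cases. With the stronger 50% it was 0.114 percentage points for H3K9cr at Cfap77, 0.0275 for H3K4me3 and -2.81 for H3K27me3 at Spef1, 1.48 for H3K27me3 at Ribc2 and 2.64 for H3K27ac at Rsph1. With windows of 10 kb it was 0.180 for H3K9cr at Cfap77 and 1.67 for H3K27me3 at Ribc2, and with windows of 1 kb -0.397 for H3K9cr at Spef1. No paired analysis was possible because each mark and treatment has 1 library and the labels give no replicate numbers. Depth is unknown, so a peak absent from a list was not called at this depth and may not be absent from the cells.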
